A study of Panicum virgatum with 54 samples.

Results

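A set of 116 genes stood higher in droughted and in droughted and heated leaves of switchgrass (Panicum virgatum) than in untreated control leaves from 96 to 168 h. The members were chosen on measured values. Levels were computed as CPM (counts scaled to 1000000 per library) and as L, the log2 of CPM plus 1. A member had a control median of at least 1 CPM over the 12 control libraries at 96, 120, 144 and 168 h. Its 25th percentile of L also lay at least 1 above the control median of L in the 12 drought libraries and in the 12 combined libraries of those times. The distance from the control median to that percentile is called the gap. The rule allowed up to 200 genes, and 116 of the 32190 genes in the deposited table met it. Of the 30002 genes with a control median of at least 1 CPM, called eligible genes below, 283 passed the gap in drought and 717 in combined plants, and 0.387% passed both.

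The leaves came from AP13, a genotype selected from the lowland cultivar Alamo, grown from ramets in pots and sampled at a developmental stage labelled E3. Every group is this 1 clonal genotype. The 54 libraries form 18 groups of 3, with control (untreated), drought, and drought with heat (here combined) at 0, 72, 96, 120, 144 and 168 h. Combined plants had 0 h of heat at 0 and 72 h, 24 h at 96 h, 48 h at 120 h and 72 h at 144 h, and the titles give no hours of heat at 168 h. The titles of the combined 96 h libraries read 94 h. Combined plants were kept in their own growth chamber, apart from the one with control and drought plants, so from 96 h on heat and chamber cannot be told apart. At 0 and 72 h the titles give them no heat, so there they differ from drought plants by chamber alone as far as the labels say, and from control plants at 72 h by both drought and chamber. No label ties the 3 libraries of a group to separate plants, and p-values measure only the spread between libraries, which may be technical in part.

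Drying leaves accumulate the hormone abscisic acid. It binds receptors that inhibit a family of protein phosphatases, which frees kinases to activate transcription factors of the bZIP class. Known targets in plants include dehydrins and other late embryogenesis abundant proteins, enzymes that make compatible solutes, and lipid transfer proteins, while heat acts through heat shock factors on chaperone genes. The deposited table lists genes by identifier only. Of its 32190 identifiers, 0 matched an entry among the 74976 genes that RefSeq lists for P.virgatum_v5, so no member is given a name, a role or a sequence here. The chromosome given for a member is the one written in its identifier, with K and N for the subgenomes of this polyploid and J for sequence placed on no chromosome.

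Libraries held 19160408 to 61615475 counts. All 116 members passed the expression filter of edgeR, and the lowest control count of any member at 96 to 168 h was 5. A group of 405 genes, found by their split among the 0 h libraries without use of the treatments, was nearly absent from 12 libraries and intermediate in 4. At 96 to 168 h these were 0 of 12 control, 5 of 12 drought and 6 of 12 combined libraries. None of the 405 genes was a member. Counts of near-identical gene copies, such as pairs on the K and N subgenomes, are uncertain where the authors' counting split reads between them.

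From 96 h on the members had low levels in control leaves, as the rule favours, and higher ones under both stresses. Their control medians at 96 to 168 h ran from 1.00 to 223 CPM with a median over members of 3.99 CPM, against 10.1 CPM over eligible genes. Drought medians ran from 7.72 to 956 CPM (median over members 36.0 CPM) and combined medians from 5.58 to 910.0 CPM (median over members 25.8 CPM). Together the members took 0.101% to 1.23% of the counts of a control library at these times (median 0.146%), 0.281% to 1.41% of a drought library (median 0.909%) and 0.266% to 1.73% of a combined library (median 0.798%). These values chose the members and are a description. In whole leaves, fewer cells of a type and less RNA per cell cannot be told apart.

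**Figure D1:**
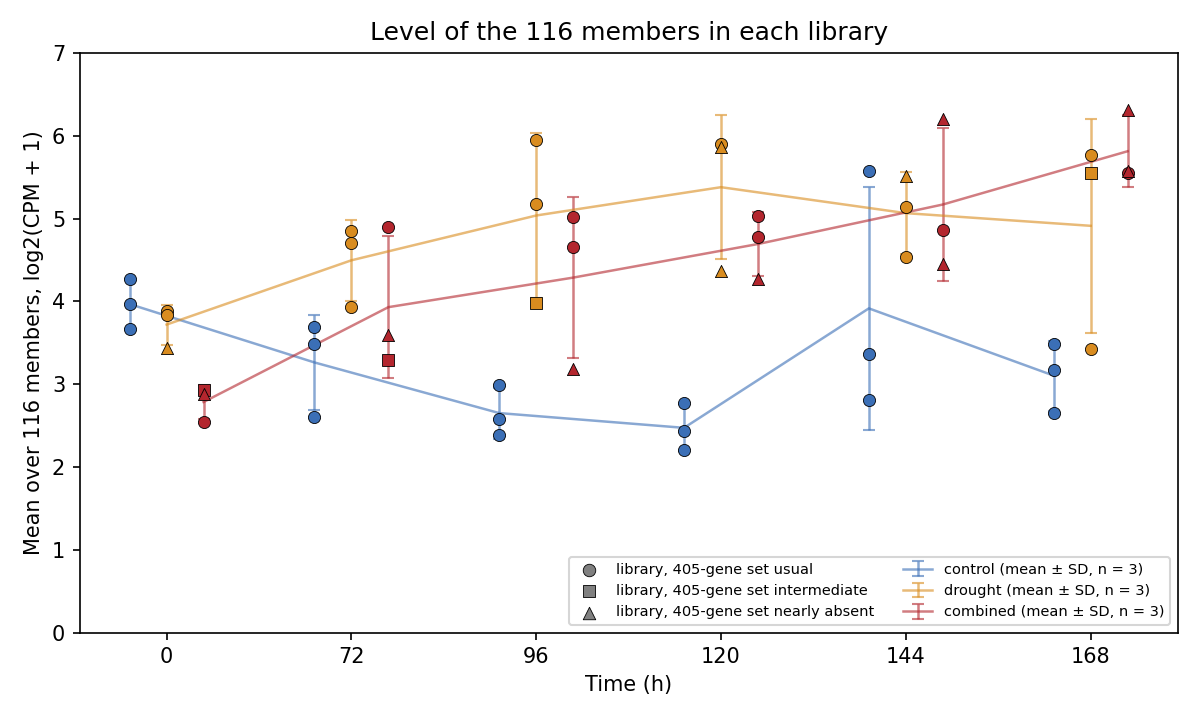
Mean of log2(CPM + 1) over the 116 members (vertical axis) in each of the 54 libraries by time in h (horizontal axis), with lines and bars for group mean ± SD (n = 3) and marker shape for the level of the 405-gene set. Control libraries lay between 3.66 and 4.27 at 0 h and between 2.21 and 2.77 at 120 h, combined libraries between 2.55 and 2.93 at 0 h and between 5.55 and 6.32 at 168 h, and control 144 h replicate 2 stood at 5.58.

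The gap in drought had a median of 1.55 over members and reached 3.44, and the gap in combined plants had a median of 1.43 and reached 3.87. The smaller of both gaps, which ranked the members, was that of drought for 58 members and that of combined plants for 58. It was at least 2 for 15 members and below 1.1 for 24. At the edge of the rule, Pavir.2KG218500.v4.1 on 2K was the last member with a smaller gap of 1.00. Pavir.3KG434400.v4.1 on 3K was the first gene outside with 0.99, and 44 eligible genes outside lay between 0.9 and 1.

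Pavir.3KG098100.v4.1 on 3K ranked first, with gaps of 2.95 in drought and 3.21 in combined plants. At 96 to 168 h its control libraries ran from 1.02 to 269.6 CPM with a median of 3.985 CPM. Its drought libraries ran from 17.7 to 524 CPM (median 121.4 CPM) and its combined libraries from 12.7 to 451 CPM (median 152.2 CPM). The control value of 269.6 CPM came from 144 h replicate 2, and the next highest control value was 27.8 CPM, so control libraries overlapped both stressed groups. Its lowest drought values, 27.8, 19.4 and 17.7 CPM, all came from replicate 2.

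Pavir.J430500.v4.1, on unplaced sequence, ranked second with gaps of 2.87 and 3.04. Its control libraries ran from 0.659 to 59.1 CPM (median 3.10 CPM), its drought libraries from 2.18 to 141.6 CPM (median 51.3 CPM) and its combined libraries from 6.06 to 196.4 CPM (median 60.1 CPM). Control 144 h replicate 2 again held the highest control value, and drought 168 h replicate 2 the lowest drought value.

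Pavir.5KG373100.v4.1 on 5K had the highest control median of any member. It ran from 154.6 to 1585 CPM in control libraries (median 223 CPM), from 245 to 1468 CPM in drought (median 927 CPM) and from 452 to 1772 CPM in combined libraries (median 910.0 CPM). Its 3 control libraries at 0 h held 60.6, 222 and 128 CPM, so its later control median was level with the highest of them. Pavir.5NG344500.v4.1 on 5N, next in control level, stood higher in control plants at 0 h than later. Its 0 h control libraries held 1865, 947 and 446 CPM, while the control median from 96 h was 127.7 CPM (range 95.7 to 1206 CPM). Drought had a median of 956 CPM (211 to 1564 CPM) and combined plants one of 690.3 CPM (86.8 to 1761 CPM), so the stressed medians lay within the range of the control leaves at 0 h.

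**Figure D2:**
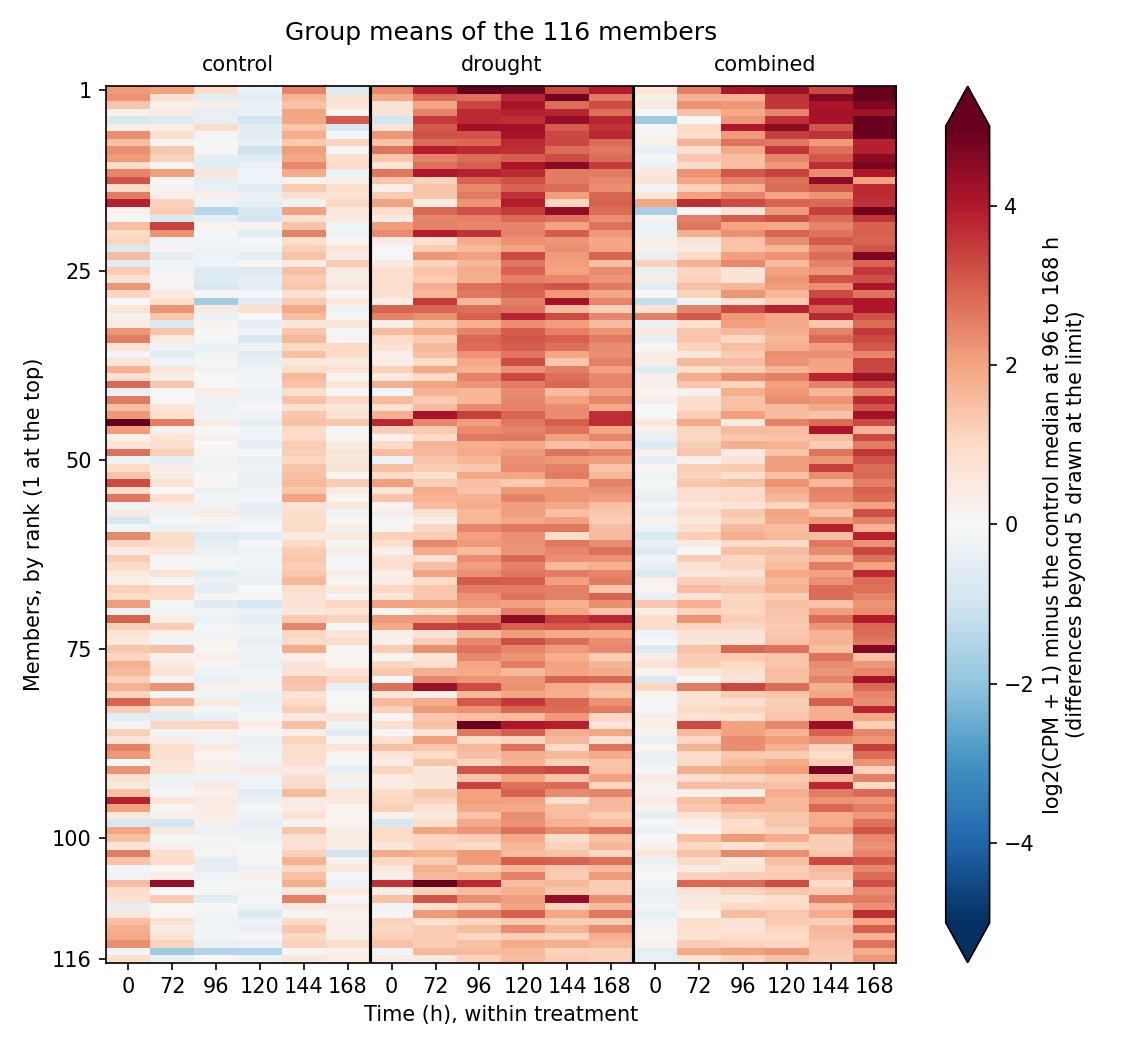
Group mean of L of each of the 116 members (rows, rank 1 at the top) minus its control median of L at 96 to 168 h, for 6 times within control, drought and combined plants (columns, n = 3 libraries each). Red marks levels above the later control median, and the 0 h control column is red for most rows, while the 0 h combined column is pale, with 58 rows above 0. Differences beyond 5 are drawn at the limit of the scale.

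Measured against the start of the same treatment, members stood higher later in stressed plants and lower later in control plants. The control median of L at 96 to 168 h lay below the 0 h control mean for 97 members (83.6%, against 64.2% of eligible genes) and above it for 19. The median difference was -1.12 (-0.16 over eligible genes). In 82 members, 70.7% of them, all 3 control libraries at 0 h lay above the later control median, against 46.3% of eligible genes. In drought plants 109 members lay above their own 0 h mean, with a median difference of 1.57 (0.03 over eligible genes), and 81 by at least 1. In combined plants 116, every member, lay above their own 0 h mean, against 70.3% of eligible genes. The median difference was 2.03 (0.28 over eligible genes), and 111 members lay at least 1 above (3117 of 30002 eligible genes). A lower later control with a higher later level in both stressed treatments was found in 90 members, and 19 lay above their own start in all 3 treatments. Set against the 0 h control mean, the later drought median was higher for 97 members (70 by at least 1) and the later combined median for 88 (58 by at least 1). The rule used the later libraries, low control levels included, so these values carry no test. The counts that join treatments or use the 0 h control mean for stressed plants have no share over eligible genes here, so nothing is read from them.

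The course of the members in time is given as a description, since the rule used the libraries from 96 h on. From 0 to 168 h, in order of time, the mean of L over members in drought plants was 3.72 ± 0.24, 4.50 ± 0.49, 5.04 ± 0.99, 5.38 ± 0.87, 5.07 ± 0.50 and 4.91 ± 1.29 (SD, n = 3 each). In combined plants it was 2.78 ± 0.21, 3.93 ± 0.86, 4.29 ± 0.97, 4.69 ± 0.38, 5.17 ± 0.92 and 5.81 ± 0.44 (SD, n = 3 each). The highest of the 6 drought group means fell at 120 h for 64 members (55.2%, against 31.3% of eligible genes) and at 168 h for 10. The highest combined group mean fell at 168 h for 89 members (76.7%, against 40.0% of eligible genes) and at 144 h for 22. Drought means from 96 h on lay within 1 SD of each other, so no time of highest level is shown for drought plants, and the times were not compared by a test.

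Control plants, in the same order, had means of 3.97 ± 0.30, 3.26 ± 0.58, 2.65 ± 0.31, 2.47 ± 0.28, 3.92 ± 1.47 and 3.10 ± 0.42 (SD, n = 3 each). The wide spread at 144 h came from replicate 2, at 5.58 against 3.36 and 2.81 in the others. Of the 12 later control libraries, that library held the highest value for 99 of 116 members, against 44.3% of eligible genes, and it exceeded the later drought median in 87 members. With it left out, 146 genes met the rule, 114 of them members. No member had all 12 drought libraries above all 12 control libraries (0.00333% of eligible genes did), and 5 had all 12 combined libraries above them (0.633%). Without control 144 h replicate 2 the counts were 5 (0.0700%) and 12 (2.17%). The rule used these libraries, so nothing is read from those counts.

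Among drought libraries, replicate 2 had the lowest mean of L over members at each of the 4 later times, at 3.98, 4.37, 4.54 and 3.43, while replicates 1 and 3 lay between 5.15 and 5.95. Over these times 112 members were lower in replicate 2 than in the mean of the others, with a median difference of -1.51, against 68.3% and -0.16 for eligible genes. Without those 4 libraries 204 genes met the rule, 114 of them members. The 7 later drought libraries with the usual level of the 405-gene set had a median of 5.17 (3.43 to 5.95) and the other 5 one of 5.52 (3.98 to 5.87). In combined plants the 6 usual libraries had a median of 4.94 (4.65 to 5.55) and the other 6 one of 5.01 (3.19 to 6.32), so the levels of both kinds overlapped. In the usual libraries alone 177 genes met the rule, 105 of them members, and all 116 members kept both gaps above 0.

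The members also varied more between libraries of a group than most genes. Their median biological coefficient of variation in edgeR was 0.655, against 0.304 over the 32011 genes tested. Over all 54 libraries the correlation of a member with the mean of the others had a median Pearson r of 0.84 and ran from 0.32, for Pavir.8NG084900.v4.1, to 0.96. The libraries share their depth and the 3 treatments. The rule also chose members on the libraries from 96 h on, so a high r was partly built in. These values are a description only.

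Combined plants, heated and in their own chamber, lay at least 0.5 below drought plants in a larger share of members than of eligible genes. The share of members at least 0.5 above drought plants was no larger than that of eligible genes. From 96 to 168 h the combined median of L minus the drought median had a median of -0.15 over members (0.04 over eligible genes) and ran from -1.82 to 1.42. It was at most -0.5 in 37 members (31.9%, against 10.3% of eligible genes), at least 0.5 in 12 (10.3%, against 13.8%) and within 0.5 in 67. Both treatments entered the rule, so no test is given.

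Pavir.4NG262600.v4.1 on 4N lay furthest below drought in combined plants. From 96 h its control libraries ran from 0.914 to 78.9 CPM (median 2.48 CPM), its drought libraries from 4.35 to 198.4 CPM (median 43.9 CPM) and its combined libraries from 2.43 to 38.4 CPM (median 11.7 CPM). At 96 h drought replicates 1 to 3 held 48.3, 5.84 and 198.4 CPM and combined replicates 6.63, 2.43 and 12.8 CPM. Pavir.1NG519200.v4.1 on 1N followed, with medians of 1.61 CPM in control, 22.8 CPM in drought (0.893 to 81.3 CPM) and 5.58 CPM in combined libraries (0.742 to 64.6 CPM). Drought and combined libraries overlapped for both genes.

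Pavir.4KG059800.v4.1 on 4K lay furthest above drought in combined plants, with medians of 2.41 CPM in control (1.52 to 26.9 CPM), 11.6 CPM in drought (2.01 to 84.3 CPM) and 33.0 CPM in combined libraries (13.8 to 106.6 CPM). Its drought libraries at 0 h already held 24.9, 62.7 and 9.46 CPM, more than the later drought median in 2 of 3. Pavir.9NG128900.v4.1 on 9N had medians of 3.13 CPM in control (0.429 to 13.1 CPM), 10.8 CPM in drought (3.68 to 32.5 CPM) and 26.8 CPM in combined libraries (1.64 to 114.8 CPM). Here the combined libraries at 168 h, with 114.8, 38.3 and 50.3 CPM, lay above all 12 later drought libraries.

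**Figure D3:**
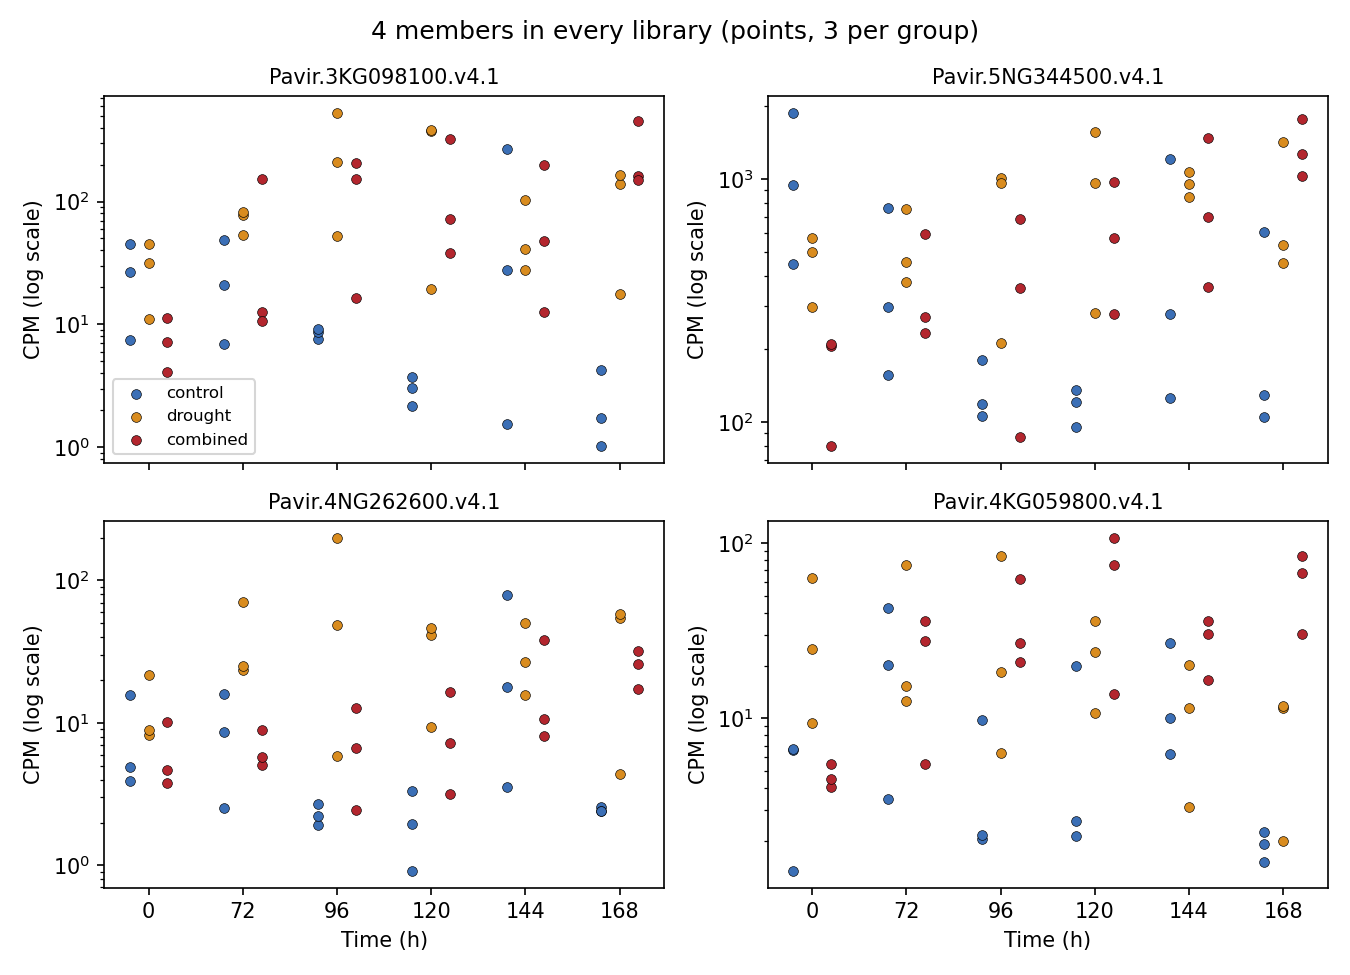
CPM on a log axis (vertical) in each library (points, 3 per group) by time in h for the first-ranked member, the member with the second highest control median, and the members furthest below and above drought in combined plants. Control 144 h replicate 2 is the high control point at 144 h in the first 3 panels, at 269.6, 1206 and 78.9 CPM.

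The libraries at 0 and 72 h took no part in the choice of members, and the comparisons among them were tested with edgeR over all 32011 genes kept. Drought against control at 72 h asks how the members stood before the times that chose them. They lay higher in drought leaves in the median, with a log2 fold change of 1.04 (quartiles 0.37 and 1.71), against 0.01 over all genes. The fold change was above 0 for 101 members (87.1%, against 51.5% of all genes). All 3 drought libraries exceeded all 3 control libraries in 48 members (41.4%, against 13.5% of eligible genes). No single member passed at an edgeR adjusted p below 0.05 (0.00312% of all genes were called higher and 0.0437% lower). At an unadjusted p below 0.05, 35 were higher and 0 lower (3.88% and 2.75% of all genes), DESeq2 called 4 higher and limma 0. Calls of DESeq2 and limma, here and below, are given without a share over all genes, so nothing is read from them. The means of L over members were 4.70, 3.93 and 4.85 in the drought libraries and 3.70, 3.48 and 2.61 in the control libraries, so these groups did not overlap.

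Combined plants at 72 h had drought without heat in the second chamber, and they were compared with the same controls. The median log2 fold change over members was 0.70 (quartiles 0.07 and 1.21), against 0.03 over all genes, and 88 members lay above 0 (75.9%, against 53.0%). All 3 combined libraries exceeded all 3 control libraries in 24 members (20.7%, against 15.9% of eligible genes). The only member called higher by edgeR was Pavir.4NG248700.v4.1 on 4N, and 1.34% of all genes were called higher and 0.256% lower. At an unadjusted p below 0.05, 16 members were higher and 1 lower (10.6% and 5.33% of all genes). For Pavir.4NG248700.v4.1 the combined libraries held 221, 71.1 and 842 CPM and the control libraries 15.4, 50.1 and 15.5 CPM, without overlap, with a log2 fold change of 3.53 ± 0.90 (SE) and an edgeR adjusted p of 0.0332. Drought libraries held 255, 149.4 and 302 CPM of this transcript at that time.

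That comparison rested on single libraries. Combined 72 h replicate 3 had a mean of L over members of 4.90, and replicates 1 and 2 had 3.29 and 3.60, within the control range. Replicate 3 was the only one of them with the usual level of the 405-gene set, and the part of that in the result was not tested. Without replicate 3 the median over members was -0.01 and 0 members were called higher, without replicate 1 or 2 there were 5 and 3, and without control 72 h replicate 1, 2 or 3 there were 0 each. Set directly against drought plants at 72 h, combined plants had a median of -0.41 over members (0.03 over all genes). The edgeR test called 0 members in either direction, where 1.86% of all genes were called higher and 0.690% lower. At an unadjusted p below 0.05, 1 member was higher and 15 were lower (10.2% and 7.12% of all genes), DESeq2 called 1 and 5 and limma 0. All 3 combined libraries lay above all 3 drought libraries in 3 members (7.51% of eligible genes) and below them in 13 (7.81%). Without combined replicates 1 to 3 in turn that median was -0.07, -0.25 and -1.04, without drought replicates 1 and 3 it was -0.27 and -0.13, and in the libraries with the usual 405-gene level, where combined plants had only replicate 3, it was 0.15.

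**Figure D4:**
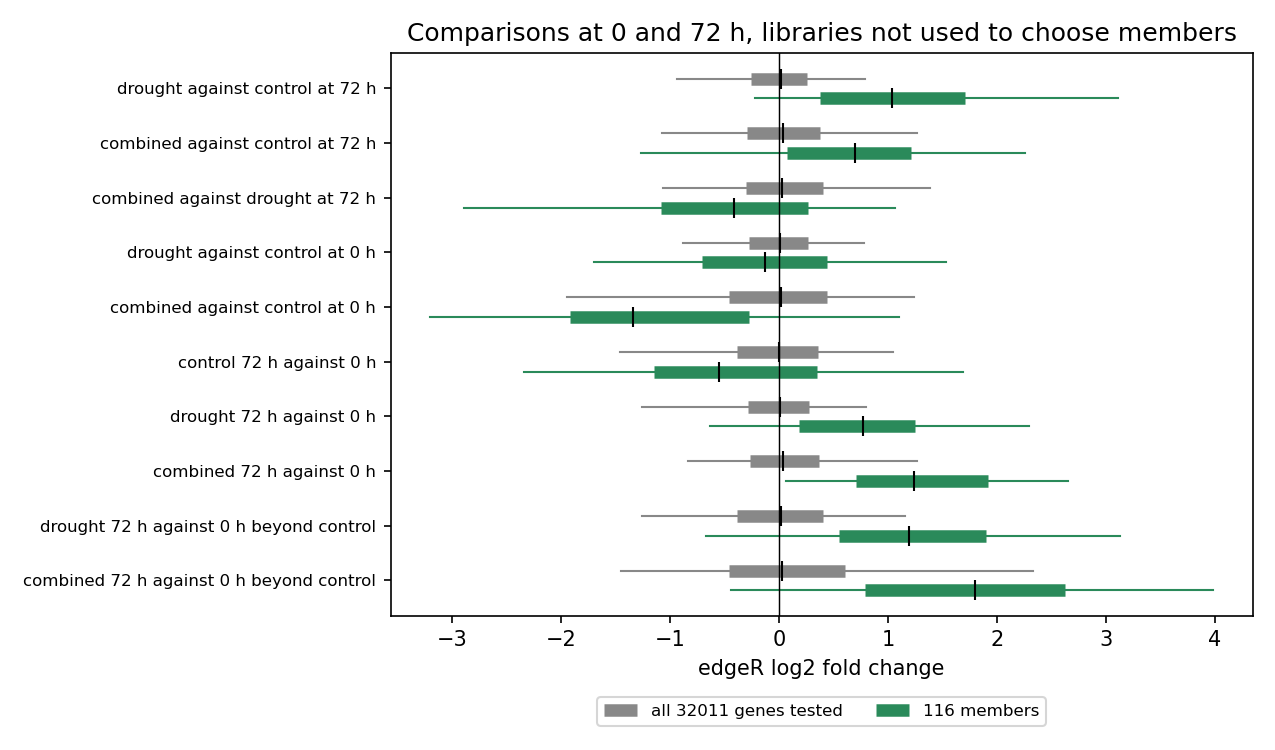
Log2 fold changes from edgeR (horizontal axis) in 10 comparisons at 0 and 72 h (rows) for the 116 members (green) and all 32011 genes tested (grey), with ticks at the medians, thick bars from the 25th to the 75th percentile and thin lines from the 5th to the 95th. Member medians lie above 0 in both comparisons with control at 72 h (1.04 and 0.70) and below 0 for combined against control at 0 h (-1.34).

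At 0 h combined plants, in their own chamber, stood lower in the members than control and drought plants. The means of L over members were 4.27, 3.66 and 3.96 in control libraries, 3.44, 3.88 and 3.84 in drought libraries and 2.93, 2.88 and 2.55 in combined libraries. The group mean of L over all genes was also lower, at 3.71 in control, 3.58 in drought and 3.35 in combined plants. Over members it was 3.97, 3.72 and 2.78. Drought against control had a median log2 fold change of -0.13 over members, and edgeR called 0 members higher or lower, with 0.00312% and 0.0187% of all genes called. At an unadjusted p below 0.05, 6 members were higher and 4 lower (3.24% and 2.83% of all genes), DESeq2 called 0 and 1 and limma 0. All 3 drought libraries lay above all 3 control libraries in 1 member (3.23% of eligible genes) and below them in 10 (4.81%). Without control 0 h replicates 1 and 2 the median was 0.03 and -0.22, and without drought 0 h replicates 1 to 3 in turn it was -0.00039, -0.31 and -0.26. Combined against control had a median of -1.34 over members (0.02 over all genes), with 98 members below 0 and 18 above (15.5%, against 51.0% of all genes). All 3 combined libraries lay below all 3 control libraries in 72 members (62.1%, against 35.1% of eligible genes) and above them in 2 (8.46%), and they lay below all 3 drought libraries in 49 (42.2%, against 17.1%). By edgeR 14 members were lower and 3 higher, 12.1% and 2.59% of them, next to 7.47% and 5.48% of all genes, and at an unadjusted p below 0.05 they were 38 and 5, where 15.1% and 14.3% of all genes passed.

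The 14 lower members had log2 fold changes from -4.49 to -1.42, and those with the smallest p were Pavir.2KG498700.v4.1 on 2K and Pavir.8KG199900.v4.1 on 8K. The first held 3.84, 5.001 and 2.37 CPM in combined and 64.0, 59.7 and 30.1 CPM in control libraries (log2 -3.42 ± 0.75, SE, edgeR adjusted p = 0.00431), and the drought libraries held 4.62, 3.65 and 13.8 CPM. The second held 2.40, 1.42 and 1.68 CPM in combined and 26.0, 26.2 and 15.9 CPM in control libraries (log2 -3.29 ± 0.78, SE, edgeR adjusted p = 0.00700). Drought libraries of the second held 3.12, 10.45 and 20.7 CPM. Neither gene overlapped between combined and control plants, and drought libraries overlapped the combined ones for the first only. The 3 higher members, named here because they are few, were Pavir.5KG620400.v4.1, Pavir.8KG265700.v4.1 and Pavir.5KG482500.v4.1, with log2 fold changes of 2.50, 3.27 and 1.37 (largest edgeR adjusted p 0.0442). With control 0 h replicate 1 left out, 1 lower and 0 higher members remained in the counts, and with combined 0 h replicates 1 to 3 left out in turn the lower ones numbered 9, 5 and 2. Without combined replicate 2 the value of Pavir.8KG265700.v4.1 was 2.12 and that of Pavir.5KG482500.v4.1 was 0.86, and there were also 0 higher members, and without control replicate 2 there was 1. In libraries with the usual 405-gene level, where combined plants had only replicate 3 at 0 h, the counts were 0 and 0.

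Between 0 and 72 h the median of the members went down in control leaves and up in stressed ones. In control leaves the median log2 fold change over members was -0.55 (0.00 over all genes), and 78 members lay below 0. The median was -0.33 without control 0 h replicate 1 and -0.83 without control 72 h replicate 1. All 3 libraries at 72 h lay below all 3 at 0 h in 32 members (27.6%, against 33.0% of eligible genes), so at this time that share was near the background. By edgeR 2 members were lower and 0 higher, where 0.884% and 0.375% of all genes were called, and 15 and 6 passed at an unadjusted p below 0.05 (11.0% and 8.70% of all genes). The called members were Pavir.2KG498700.v4.1, which fell to 7.82, 6.87 and 1.53 CPM (log2 -2.97 ± 0.74, SE, edgeR adjusted p = 0.0397), and Pavir.9NG799200.v4.1 on 9N. The latter held 138.0, 23.0 and 19.5 CPM at 0 h and 3.95, 5.45 and 2.12 CPM at 72 h (log2 -3.64 ± 0.94, SE, edgeR adjusted p = 0.0416). Without control 0 h replicate 1, the library at 138.0 CPM, the value of Pavir.9NG799200.v4.1 was -2.23. The count was 0 without that library or control 72 h replicate 2 or 3, and 1 without control 0 h replicate 2 or control 72 h replicate 1.

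In drought leaves the median change from 0 to 72 h was 0.77 over members (0.01 over all genes), with 95 above 0 (81.9%, against 51.2% of all genes). All 3 later libraries exceeded all 3 earlier ones in 28 members (24.1%, against 4.64% of eligible genes). In combined leaves the median change was 1.24 (0.04 over all genes), with 113 above 0 (97.4%, against 53.2% of all genes). All 3 later libraries exceeded all 3 earlier ones there in 45 members (38.8%, against 14.6% of eligible genes). In both treatments edgeR called 0 genes of the whole table in either direction (0.00%). At an unadjusted p below 0.05, 19 members were higher and 1 lower in drought (3.58% and 5.93% of all genes) and 39 were higher and 0 lower in combined plants (7.73% and 4.15%). In each, DESeq2 called 1 member higher and limma 0. The combined median was 0.62 without 72 h replicate 3, and without 72 h replicate 1 there was 1 member called.

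The change from 0 to 72 h was also tested against that in control leaves, as a difference of differences. For drought plants the median over members was 1.19 on the log2 scale (0.02 over all genes), with 102 above 0 (87.9%, against 51.1% of all genes). There edgeR called 0 genes of the whole table, with 18 members higher and 0 lower at an unadjusted p below 0.05 (4.20% and 4.05% of all genes), while DESeq2 called 1 member higher and limma 0. For combined plants the median was 1.80 (0.03 over all genes), with 103 above 0 (88.8%, against 51.7% of all genes). By edgeR 4 members were higher and 0 lower, 3.45% of members next to 1.90% and 0.525% of all genes. At an unadjusted p below 0.05, 40 were higher and 0 lower (12.7% and 8.44% of all genes). Without combined 72 h replicate 3 the median was 1.02. Both comparisons share the control libraries, and combined plants started lower at 0 h.

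The 4 members, named here because they are few, were Pavir.6NG190000.v4.1, Pavir.9NG799200.v4.1, Pavir.2KG498700.v4.1 and Pavir.9KG499400.v4.1. The first went from 3.49, 4.72 and 2.16 CPM to 4.50, 15.9 and 20.2 CPM in combined plants, and from 15.5, 8.01 and 12.03 CPM to 5.35, 4.096 and 1.57 CPM in control plants. Its difference of changes was 3.08 ± 0.69 (log2, SE, edgeR adjusted p = 0.0233), and combined libraries overlapped between the times. Pavir.9KG499400.v4.1 on 9K went from 0.512, 0.361 and 0.745 CPM to 1.06, 0.749 and 16.5 CPM in combined plants and from 5.97, 3.96 and 4.97 CPM to 0.251, 0.812 and 0.353 CPM in control plants (log2 6.22 ± 1.62, SE, edgeR adjusted p = 0.0357). In each of the 4 all control libraries at 72 h lay below all those at 0 h, so the difference holds the control change as well as that in combined plants. Without combined 72 h replicate 3 the value of Pavir.9KG499400.v4.1 was 3.72. The count was 0 without control 0 h replicate 1, control 72 h replicate 2 or 3, combined 0 h replicate 1 or 3, or combined 72 h replicate 3. It was 7 without control 0 h replicate 3, 11 without control 72 h replicate 1 and 9 without combined 72 h replicate 1.

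The members were spread over the genome. K identifiers made up 60 members (51.7%, against 48.9% of eligible genes), N identifiers 53 (45.7%, against 46.8%) and unplaced sequence 3 (2.59%, against 4.22%). Each chromosome held at least 3 members, with 11 on 5K (9.48%, against 8.27% of eligible genes). Chromosomes 9K and 9N held 10 each (8.62%, against 7.93% and 9.82%). Members with identifier numbers within 500 of each other on a chromosome formed 3 pairs. Pavir.3KG098000.v4.1 and Pavir.3KG098100.v4.1 carried consecutive numbers and ranked 12 and 1, and Pavir.5KG482400.v4.1 and Pavir.5KG482500.v4.1, also consecutive, ranked 32 and 84. Pavir.9NG799200.v4.1 and Pavir.9NG799700.v4.1 ranked 13 and 5. If such neighbours are near-identical copies, their separate counts are uncertain, and without sequences this was not tested.

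Outside the set, the genes whose L was most like the mean of the members over the 54 libraries were Pavir.1KG056300.v4.1 and Pavir.1KG550200.v4.1, both on 1K. Their Pearson r was 0.93 each and their Spearman rho 0.91 and 0.93, as a description over libraries that share treatments and depth. The first had medians of 13.8 CPM in control, 21.8 CPM in drought and 20.05 CPM in combined libraries at 96 to 168 h, with gaps of 0.37 and 0.40, too small for the rule. The second had gaps of 2.02 and 1.70 but a control median of 0.973 CPM, just under the minimum, and medians of 16.9 CPM in drought and 7.002 CPM in combined libraries.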

How the data were processed

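Leaf mRNA of 54 libraries was measured. Per the labels' protocols the library kit marks strand. HTSeq, TopHat and Cufflinks stand in the submitters' processing notes, with neither versions nor roles. For the genome build, annotation and strand setting, nothing is given in the sources used here, so reads of overlapping and antisense genes may be mixed. The deposited values are raw whole-number counts by gene, with no normalization by the authors. Groups and times were read from titles, with 94 h taken as 96 h, as the series design and the column names have it, and 1 week as 168 h. Replicates differed by at least 23.4 times the counting variance, so no library appeared to be a copy.

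The members and the comparisons were chosen with earlier results of these data known. Levels are CPM on library totals. Tests used edgeR 4.0.16 in R 4.3.3 (filter at a minimum count of 10 and total of 15, 32011 genes kept, TMM scaling, 18 group means, quasi-likelihood F-test, contrasts with SE), with Benjamini-Hochberg adjustment over all genes and calls at an adjusted p below 0.05. Only comparisons at 0 and 72 h were tested, since the later libraries chose the members. The script was tested on simulated counts, with 100 genes changed at each size. For drought against control at 72 h, 4% of 2-fold and 68% of 4-fold changes were recovered. For combined plants from 0 to 72 h beyond control these were 0% and 18%. The simulated spread followed the trend over genes and not the spread of the members. A member that was not called is thus not shown to be unchanged. Genes were named by a fixed rule: ranks 1 and 2, the edge of the rule, the highest control medians, the extremes of combined minus drought, the genes most like the set, and called members. Counts of 5 or fewer, the combined against control comparison at 0 h, and the member with the lowest correlation were named after their values were seen. The alternatives were DESeq2 1.42.0, its size factors, limma 3.58.1 with and without an estimated correlation (0.204), other filters, a replicate block, models of the compared groups only, the libraries with the usual 405-gene level, other forms of the rule and leaving out single libraries.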

Additional observations from a re-analysis of the deposited data

Results flagged for a closer look

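The treatment difference at 72 h was tested against that at 0 h, and 4 members passed as higher for combined plants against control. They were 3.45% of members, next to 1.90% of all genes called higher and 0.525% called lower. In each of the 4 all control libraries at 72 h lay below all those at 0 h, so the difference holds that change too. Their differences of log2 changes were 3.08 for Pavir.6NG190000.v4.1, 5.53 for Pavir.9NG799200.v4.1, 4.19 for Pavir.2KG498700.v4.1 and 6.22 for Pavir.9KG499400.v4.1, with edgeR adjusted p-values of 0.0233, 0.0250, 0.0277 and 0.0357. Pavir.9KG499400.v4.1 stood at 16.5 CPM in combined 72 h replicate 3 and at 1.06 and 0.749 CPM in replicates 1 and 2, and without replicate 3 its value was 3.72 (edgeR adjusted p = 0.219, with 0.00203 to 0.409 over its alternatives). The adjusted p of all 4 rose above 0.05 with only the groups compared (0.164 each) and in limma.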

How the results depend on the processing

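Counts of called members were small and moved with most settings. Shares of all genes called are not given for the other settings, so these counts show only how the calls moved. For drought against control at 72 h, DESeq2 called 4 members higher and the other settings 0. For combined against control at 72 h (1 higher), the count was 8 in DESeq2, 2 with the replicate block, 0 with only the groups compared and in limma with or without the correlation, 9 in libraries with the usual 405-gene level, 3 for members chosen without control 144 h replicate 2, and 0 to 5 without single libraries. Combined against drought at 72 h gave 1 higher and 5 lower in DESeq2, and drought against control at 0 h 1 lower. For combined against control at 0 h, the 3 higher became 0 with only the groups compared, 1 in limma with the correlation, 0 in the usual libraries and 0 to 3 without single libraries. The 14 lower became 26 in DESeq2, 9 with only the groups compared, 8 in limma with or without the correlation, 0 in the usual libraries, 7 for members chosen on TMM-scaled CPM and 1 to 16 without single libraries. The 2 lower in control from 0 to 72 h became 5 in DESeq2, 0 with only the groups compared, 1 in limma with or without the correlation, 1 in the usual libraries, 4 and 1 for members chosen without control 144 h replicate 2 or on TMM-scaled CPM, and 0 to 3 without single libraries. From 0 to 72 h, DESeq2 called 1 member higher in drought, in combined plants and in drought beyond control. Combined plants had 1 in the usual libraries and 0 to 1 without single libraries. The 4 higher in combined beyond control became 14 in DESeq2, 0 with only the groups compared, 0 in limma, 9 in the usual libraries, 7 and 2 for members chosen without control 144 h replicate 2 or on TMM-scaled CPM, and 0 to 11 without single libraries. The cause was not tested.

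The median log2 fold change over members kept its sign in all settings run for 7 of the 10 comparisons. For combined against control at 72 h it ran from -0.013 to 1.01 without single libraries. For combined against drought at 72 h it was 0.15 in the usual libraries, and for drought against control at 0 h 0.0071 there and -0.31 to 0.026 without single libraries. The rule gave 84 genes on TMM-scaled CPM, 81 of them members, 177 in the usual libraries, 204 without drought replicate 2 at 96 to 168 h (added after the data were seen) and 103 to 147 without single libraries. The labels do not say what a replicate number shares. Deviations of same-numbered libraries correlated at -0.41 to 0.66 across genes. In 19 of 48 cases, each a library in 1 comparison, the best match among 3 libraries had its own number. The numbers were therefore not taken as pairs across groups. Within a treatment a number did share some features. Combined replicate 2 was nearly without the 405-gene set at all 6 times and combined replicate 3 had its usual level at all 6. Drought replicate 2 was lowest in the members at all 4 later times. It was also lowest at 72 h, at 3.93 against 4.70 and 4.85, but not at 0 h. Between 0 and 72 h same-numbered libraries correlated at -0.11 to 0.51 in control, 0.03 to 0.17 in drought and -0.07 to 0.66 in combined plants. The main tests took these libraries as unlinked, while limma with the estimated correlation linked them within a treatment. The replicate block changed no other count of members by over 1.5 times, though Pavir.8KG265700.v4.1 no longer passed at 0 h (edgeR adjusted p = 0.0515, with 0.00564 to 0.617 over its alternatives). A lone library left in a group is assumed to vary like the others. The spread between replicates was at least 23.4 times the counting variance, as a mean over all genes with enough counts. It was not measured for the members alone, so a limit set by depth was not tested for them.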
